A study of Mus musculus with 28 samples.

Results

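Gene expression in the frontal cortex was compared between mice with 2 mutant copies of Tardbp and mice with none. The 10 homozygous libraries (HOM, genotype Q331K/Q331K) carried in both copies of the gene a knock-in allele that replaces a glutamine of TDP-43 with lysine, and the 8 wild-type libraries (WT, +/+) carried none. All 18 came from C57BL/6 mice aged 20 months, and polyA RNA was sequenced. Another 10 libraries from heterozygous mice (HET, Q331K/+, 1 mutant copy) entered the model for its estimate of spread. Of 25900 genes in the deposited table, 16110 passed a filter on low counts and all of these were compared, so that the genes were not chosen by their response. The knock-in allele sits in the mouse gene itself and is present in every cell of the animal, and the labels name no other transgene or treatment. Whether each numbered library stands for a separate mouse is not stated, and p-values here refer to the spread among libraries, part of which may be technical. Sex, litter and day of preparation are not in the labels.

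TDP-43 is a nuclear RNA-binding protein that binds GU-rich stretches, mostly in introns and 3' untranslated regions, and controls splicing, polyadenylation and the stability of many transcripts. It also regulates the level of its own messenger RNA. Mutations in its C-terminal domain, Q331K among them, cause amyotrophic lateral sclerosis and frontotemporal dementia in people, and the frontal cortex is one of the regions those diseases affect. Bulk cortex holds excitatory and inhibitory neurons, astrocytes, microglia, oligodendrocytes and their precursors, and the cells of blood vessels. In such tissue fewer cells of a type and less RNA per cell cannot be told apart.

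Total counts ran from 46.5 to 64.1 M (M, mega) in WT and from 30.5 to 62.6 M in HOM, and libraries varied around their genotype's mean with a biological coefficient of variation of 8.46%. Markers of upper-layer excitatory neurons summed to 1371 to 1583 CPM (read counts scaled to a library of 1 M) in WT and 1312 to 1598 CPM in HOM, and markers of the striatum, which lies under the frontal cortex, summed to 872 to 2065 CPM and 869 to 1664 CPM. The first principal component, with 16.1% of the variance among WT and HOM libraries, had WT 6 at one end and HOM 3 at the other. This axis also ran largely with genotype, from -23.2 to -2.88 in WT and from -8.58 to 30.4 in HOM. Leaving out WT 6 and HOM 3 therefore removes the most extreme library of each genotype along it. Whether calls lost in that fit reflect genotype or tissue composition cannot be told apart. The 24 markers of meningeal fibroblasts, cells of the membranes around the brain, summed to 324 to 668 CPM in WT and 380 to 1463 CPM in HOM. All 24 had a fold change above 0, with a median log2 fold change of 0.56, and 3 passed the threshold (5 without WT 2, 6 without HOM 7, and 1 without WT 1, 3, 6 or 7 or HOM 3, 9 or 10). The 16 choroid plexus and ependyma markers summed to 237 to 307 CPM in WT and 214 to 301 CPM in HOM. Of these 16, 12 had a fold change above 0, with a median log2 fold change of 0.29, and none passed the threshold. Calls are therefore also given from 2 added fits, always in this order: one without WT 6 and HOM 3, and one with the marker scores of meninges, choroid plexus and striatum as covariates. The choroid plexus and ependyma median was 0.08 and -0.12 in those fits. Each score is the mean log2 level of its list, so the fit with marker scores cannot test the meningeal, choroid plexus and striatal lists.

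Tardbp itself, the gene that carries the allele, ranged from 297 to 338 CPM in WT (median 321) and from 322 to 381 CPM in HOM (median 348), and 7 of 10 HOM libraries lay above the highest WT library (log2 fold change 0.12, SE 0.03, edgeR adjusted p = 0.0185). Counts per gene do not separate the mutant from the wild-type transcript.

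With 2 mutant alleles, 1226 of 16110 genes (7.61%) passed an adjusted p of 0.05 in edgeR's quasi-likelihood test. HOM was higher in 629 (3.9%) and lower in 597 (3.71%). The changes were small. The called higher genes had a median log2 fold change of 0.22 at a median level of 14.7 CPM, and the called lower genes one of -0.13 at 49.3 CPM. Of the 629 higher genes, 249 changed more than 1.2-fold, 45 more than 1.5-fold and 6 more than 2-fold. Of the 597 lower genes, 86, 17 and 3 did. For 10377 of the 14884 genes not called (69.7%), the 95% interval of the fold change lay within 1.2-fold in either direction, so larger changes than that were outside the interval for them. All 10 HOM libraries lay above all 8 WT libraries for 38 genes (0.236%) and below them for 36 (0.223%), and all 74 of these were called.

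**Figure D1:**
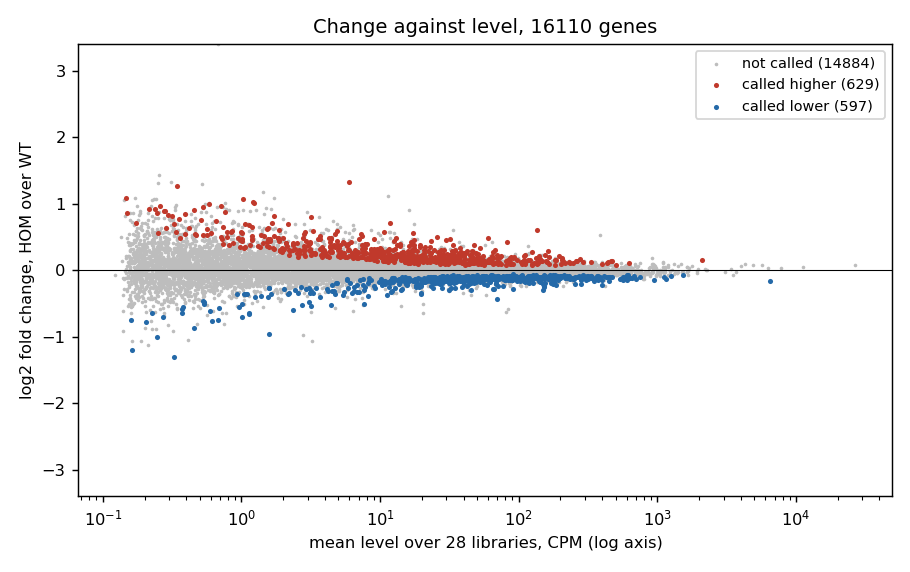
Log2 fold change of HOM over WT against the mean level over 28 libraries (CPM, log axis), 1 point per gene. Called higher genes (629, red) had a median level of 14.7 CPM and called lower genes (597, blue) one of 49.3 CPM; grey points are the 14884 genes not called.

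Leaving out 1 library at a time gave from 595 calls, without WT 6, to 1345, without HOM 7, and 725 without WT 2. Without both WT 6 and HOM 3, 232 of the higher genes (1.44% of genes tested) and 257 of the lower genes (1.6%) were called again. With the marker scores as covariates, 174 (1.08%) and 173 (1.07%) were. A stricter set of 209 higher genes (1.3%) and 228 lower genes (1.42%) passed in each of 27 settings, which are the main fit, 8 alternatives of tool, scaling, filter or model, and 18 fits that left out 1 WT or HOM library. These are called stable genes here. Where several libraries are named below as left out, each was left out alone, except the pair of WT 6 and HOM 3. Counts of 1 or 2 called members in a list are values of the full fit, and several changed when 1 library was left out, as for fatty acid and cholesterol synthesis (2 lower, but 0 without WT 6 and 4 without WT 7, HOM 7 or HOM 10).

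Markers of glia and vessels that passed the threshold were all higher. Of 30 markers of homeostatic microglia, the resident immune cells of the brain, 13 rose and none fell (median log2 fold change 0.16), against 3.9% and 3.71% of all genes and a median of 0.01 over all genes. Csf1r, the receptor that microglia need to survive, ranged from 90.1 to 111 CPM in WT (median 106) and from 113 to 134 CPM in HOM (median 117). No HOM library overlapped a WT library for it (log2 fold change 0.22, SE 0.04, adjusted p = 0.00144). Tmem119, a membrane protein used to tell microglia from other macrophages, ranged from 14.5 to 22.8 CPM in WT (median 20.2) and from 22.8 to 31.2 CPM in HOM (median 24.4), with 9 HOM libraries above the highest WT library (0.34, SE 0.07). C1qc and C1qb, which encode chains of the first complement component, rose by 0.28 and 0.20, and Olfml3, a secreted protein of microglia, rose by 0.30. Of these 13, 8 were called again without WT 6 and HOM 3, and 2 with the marker scores. The list's median was 0.14 and 0.12 in those fits.

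Genes of complement and microglial activation moved the same way, with 17 of 72 higher, none lower and a median of 0.16. Besides C1qc and C1qb they included Arhgdib (0.32), an inhibitor of small GTPases in blood-derived cells. Without WT 6, 9 were higher, 11 without WT 7 and 11 without HOM 3, and 5 and 4 of the 17 were called again in the added fits. Interferon and antigen-presentation genes had 4 of 69 higher (5.8%, against 3.9% of all genes) and none lower. Irf3, a transcription factor that induces interferon, had 0.16. Without WT 1, 2 or 6 or HOM 3 or 9, 1 of these 69 was higher, and 2 without WT 7 or 8 or HOM 2 or 4. In the added fits 1 and 0 were called again. Border macrophages, which sit around vessels and in the meninges, had 2 of 13 markers higher, Stab1 (0.31) and Ccr1 (0.88). Neither was called without WT 6, with 2 surrogate variables or in the added fits, and 1 of the 13 was without WT 1, 2, 5 or 8 or HOM 2, 3, 4, 9 or 10. Their median of 0.54 was 0.34 without HOM 3 and went to 0.22 without WT 6 and HOM 3 and to -0.05 with the marker scores. The 13 markers summed to 50.9 to 63.4 CPM in WT and 56.7 to 91.6 CPM in HOM. The meningeal markers moved with these immune lists, and their part in the result was not tested beyond the fit with marker scores.

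Astrocyte markers rose in 8 of 32 cases and fell in none (median 0.13). Gja1, the gap-junction protein connexin 43 that couples astrocytes, ranged from 169 to 191 CPM in WT (median 182) and from 192 to 231 CPM in HOM (median 208). The 2 groups did not overlap (log2 fold change 0.21, SE 0.03, adjusted p = 0.000455). Cbs, which makes cystathionine from homocysteine, ranged from 21.9 to 29.8 CPM in WT and from 32.4 to 47.5 CPM in HOM, again without overlap (0.47, SE 0.08, adjusted p = 0.00059). The water channel Aqp4 rose by 0.28 and Mlc1, a membrane protein of astrocyte endfeet, by 0.15. Glul, the enzyme that turns glutamate into glutamine, averaged 1994 ± 93.7 CPM in WT (SD, n = 8) and 2210 ± 128 CPM in HOM (n = 10). It had the highest level of the called higher genes and rose by 0.15. Grin2c, an NMDA receptor subunit that astrocytes of the cortex express, rose by 0.27 and is described with the receptors below. Leaving out WT 2, WT 3, WT 6 or HOM 9 left 5 astrocyte markers higher, 5 of the 8 were called again without WT 6 and HOM 3, and 2 with the marker scores. Of 37 genes induced in reactive astrocytes, 3 rose: Aspg (0.49), Vim (0.38) and Cp (0.33). Vim and Cp were not called in the fit without WT 6 and HOM 3, and 1 of the 37 was called when WT 1, 2, 3, 4, 6, 7 or 8 or HOM 2, 3, 4 or 9 was left out.

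In the oligodendrocyte lineage, precursor markers rose in 6 of 19 cases and fell in none (median 0.15). Pdgfra, a growth factor receptor used to mark these cells, ranged from 46.5 to 54.7 CPM in WT (median 50.8) and from 49.8 to 66.7 CPM in HOM (median 59.2), with 9 HOM libraries above the highest WT library (0.21, SE 0.04, adjusted p = 0.00233). Pdgfra is also among the meningeal markers, so its rise is not particular to precursors, and it entered the meningeal marker score. Ptprz1, a receptor phosphatase of precursors and astrocytes, rose by 0.17, and Rlbp1, a retinoid-binding protein, by 0.44. Gpr17 (0.30) marks precursors that start to differentiate. Scrg1, which was named here after its value was seen, is a gene of the lineage too, and rose by 0.38 with no overlap between 10 HOM and 8 WT libraries. Of 12 markers of newly formed oligodendrocytes 1 rose, Itpr2 (0.13), in 10 of 27 settings and in neither added fit. Of 33 markers of mature oligodendrocytes none passed the threshold, with a median of -0.08 that ran from -0.14 without HOM 6 to 0.00069 without WT 8. With 2 surrogate variables the median was -0.16 and 3 were lower. Of the 33 genes, 4 had an interval within 1.2-fold. The precursor median was 0.15 without WT 6 and HOM 3 and 0.16 with the marker scores, with 3 of the 6 called again in each. The difference between stages was not tested.

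Vessel cells gave 6 of 30 endothelial markers higher and none lower (median 0.13), and 7 of 20 markers of pericytes and smooth muscle higher and none lower (median 0.22). Eng, a TGF-beta co-receptor of endothelium, rose by 0.21 and Cdh5, the cadherin of endothelial junctions, by 0.21. Among mural cells Notch3, the receptor that keeps smooth muscle differentiated, rose by 0.23, and Higd1b, a pericyte gene, by 0.30. These counts varied with the libraries. Leaving out any 1 of 9 libraries (WT 2, 3, 6 or 7, HOM 1, 2, 5, 6 or 10) left 3 endothelial genes, and 2 mural genes were higher without WT 2 or 6, 3 without WT 1 or 3, and 4 without WT 5 or 8 or HOM 4, 6, 9 or 10. In the added fits 2 and 1 of the endothelial genes and 2 and 2 of the mural genes were called again. Of 11 blood-cell markers none passed the threshold.

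**Figure D2:**
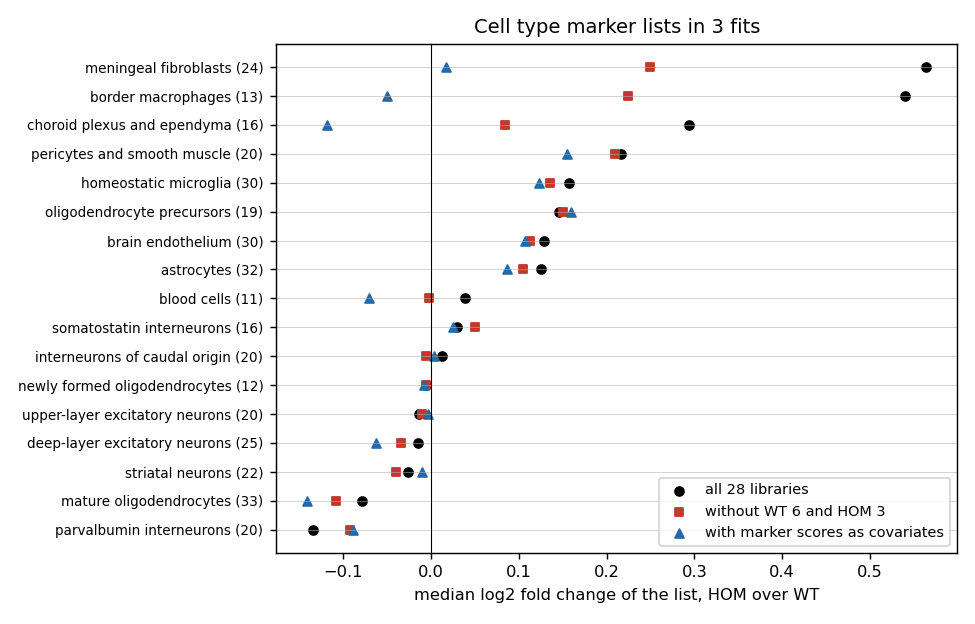
Median log2 fold change of HOM over WT for 17 cell type marker lists (tested members in brackets), in the fit of 28 libraries (circles), without WT 6 and HOM 3 (squares) and with the marker scores as covariates (triangles). The microglia, precursor, endothelial, mural and astrocyte medians stayed between 0.09 and 0.22 in these 3 fits. The meningeal median went from 0.56 to 0.25 and 0.02. The scores are means of the meningeal, choroid plexus and striatal lists themselves. Medians of those lists in the fit with marker scores were thus set largely by their own covariates.

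Genes of the extracellular matrix that passed the threshold were mostly higher as well. Of 96 genes for collagens, laminins and other matrix proteins, 12 rose and 1 fell (median 0.16), and of 43 genes named as collagens 7 rose and none fell (median 0.22). Col4a1 and Col4a2 encode the chains of the type IV collagen trimer, the main collagen of vascular basement membrane. Col4a2 ranged from 55.2 to 76.7 CPM in WT (median 68.8) and from 78.6 to 114 CPM in HOM (median 86.8). Col4a1 ranged from 51.1 to 65.9 CPM in WT (median 56.9) and from 65.9 to 82.4 CPM in HOM (median 70.8). For both genes every HOM library lay above every WT library (log2 fold changes 0.43 and 0.31, SE 0.08 and 0.06, adjusted p = 0.00129 and 0.00174). The laminin genes Lamb2 (0.30) and Lamc3 (0.42), whose products join collagen IV in basement membrane, and Ecm1 (0.37), a matrix glycoprotein, rose too. Bcam, a laminin receptor on vessels, rose by 0.27 and Vcam1, the vascular adhesion molecule, by 0.30, both without overlap. The fibrillar collagen Col1a1, also among the meningeal markers, ranged from 1.65 to 3.38 CPM in WT and from 1.94 to 8.61 CPM in HOM. Its log2 fold change of 0.79 passed in 15 of 27 settings, against 27 for Col4a1, Col4a2, Lamb2, Lamc3 and Ecm1. Spock2, a proteoglycan of neurons, fell by 0.14. Without WT 1, WT 6 or WT 7 the count of higher matrix genes was 6, and 7 without WT 8 or HOM 10. Of the collagens, 3 were higher without WT 1, 6 or 7 and 4 without WT 8, HOM 3 or HOM 10. The fits without WT 6 and HOM 3 and with the marker scores each called 6 of the 12 again. In those fits the matrix median was 0.12 and 0.03, and the collagen median 0.18 and 0.09. Col1a1, Col1a2, Col3a1 and other matrix genes entered the meningeal marker score. The matrix and collagen values with marker scores were therefore adjusted in part for these genes themselves.

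Col4a1 and Col4a2 lie head to head on chromosome 8 and start from one shared region, which is shown because both genes rose together. In RefSeq's promoter table (GRCm38.p6), 300-base windows from 250 bases before to 50 bases after each start overlap by 78 bases, written in capitals, on opposite strands: chr8:11312777-11313076 (minus strand) for Col4a1 and chr8:11312555-11312854 (plus strand) for Col4a2.
Col4a1: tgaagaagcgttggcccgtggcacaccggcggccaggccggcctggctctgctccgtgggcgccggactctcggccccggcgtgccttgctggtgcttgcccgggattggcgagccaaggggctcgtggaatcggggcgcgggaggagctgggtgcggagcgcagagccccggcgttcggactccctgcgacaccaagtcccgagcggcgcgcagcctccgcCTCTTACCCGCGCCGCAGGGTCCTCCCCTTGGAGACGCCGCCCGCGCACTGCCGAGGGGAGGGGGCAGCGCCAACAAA
Col4a2: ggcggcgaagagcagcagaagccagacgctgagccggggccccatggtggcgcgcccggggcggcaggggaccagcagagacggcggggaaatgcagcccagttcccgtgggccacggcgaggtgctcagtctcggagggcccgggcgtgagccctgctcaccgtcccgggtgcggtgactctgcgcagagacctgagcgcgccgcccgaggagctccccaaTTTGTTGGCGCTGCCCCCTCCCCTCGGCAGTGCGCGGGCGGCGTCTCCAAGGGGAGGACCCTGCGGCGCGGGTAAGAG
The Col4a1 window held 74% G and C and the Col4a2 window 73.7%, against a median of 52.7% over 32851 windows. Searched on both strands, the GC box GGGCGG occurred 1 time in the Col4a1 window and 3 times in the Col4a2 window, and 35.7% of all windows held it. The CCAAT box occurred 1 time in each, and 37.4% of all windows held it. Among tested genes with a window, 574 pairs overlapped on opposite strands. Both genes were called in 4 pairs: Col4a1 with Col4a2, Tmem176a (0.29) with Tmem176b (0.28), which encode related membrane proteins of immune cells, Fhod1 (0.26) with Slc9a5 (0.22), both higher, and Lats1 (0.13) with Pcmt1, which fell by 0.12. In 67 pairs 1 gene was called. The pairs other than Col4a1 with Col4a2 were named after their values were seen, and since strand use in counting is not known, reads in overlapping first exons cannot be assigned to 1 gene of a pair.

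Receptors for the matrix and the actin cytoskeleton they connect to showed the same direction. Of 70 genes of integrin and TGF-beta signalling 9 rose and none fell (median 0.10), led by the integrin beta chain Itgb5 (0.27) and followed by Eng and Bmp1 (0.19), a protease that processes procollagens. Without WT 1, 2 or 3, 3 of these 70 were higher, 4 without WT 6 or HOM 3 or 10, and 5 without WT 7 or 8 or HOM 4, 6 or 9. In each added fit 3 of the 9 were called again. Of 99 actin regulators and membrane linkers 13 rose and 3 fell. Msn, which links actin to the membrane, ranged from 31.6 to 36.2 CPM in WT (median 34) and from 35.2 to 45 CPM in HOM (median 40.4), with 9 HOM libraries above the highest WT library (0.25, SE 0.04). Tln1 and Pxn, which connect integrins to actin, rose by 0.14 and 0.19, and Rac2, a small GTPase of blood-derived cells, by 0.37. Without WT 6, 7 of the 99 were higher. The lower count was 1 without WT 1, 3, 6 or 8 or HOM 1, 2, 5 or 10. In the added fits 5 and 3 of the 13 higher genes and 1 and 1 of the 3 lower genes were called again. Akap13, an anchoring protein of protein kinase A, rose by 0.22, and Cyth4, an exchange factor of immune cells for ARF GTPases, by 0.29, both without overlap between groups. Wnt, Notch and hedgehog genes had 4 of 84 higher (4.76%, near the 3.9% of all genes) and none lower. Without WT 3, WT 6 or HOM 10, 2 were higher, and 1 was called again in each added fit.

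Inhibitory signalling genes that passed the threshold were all lower. Of 25 genes of GABA synthesis, transport, receptors and anchoring, 7 fell and none rose, against 3.71% lower over all genes. Gad1, the main enzyme of GABA synthesis, ranged from 387 to 466 CPM in WT (median 427) and from 335 to 408 CPM in HOM (median 363), with 8 of 10 HOM libraries below the lowest WT library (log2 fold change -0.23, SE 0.04, adjusted p = 0.000623). Gabrb2, a GABA-A receptor subunit gene, ranged from 113 to 144 CPM in WT (median 129) and from 98.1 to 120 CPM in HOM (median 112), with 5 HOM libraries below the lowest WT library (-0.20, SE 0.05, adjusted p = 0.0112). The subunit genes Gabrg3 (-0.20) and Gabra4 (-0.14), named after their values were seen, fell too. Of the 25 genes, 21 had an interval within 1.2-fold and 21 a fold change below 0, and in all 10 HOM libraries the mean log2 level of the list lay below the WT mean. That was not particular to GABA genes. It also held for nuclear pore and transport genes, cullin ligases, other ubiquitin ligases and deubiquitinases, and protocadherins. Of the 7, 4 were called again without WT 6 and HOM 3 and 3 with the marker scores.

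Among 20 markers of parvalbumin interneurons, the fast-spiking cells that inhibit the soma of pyramidal neurons, 5 fell and 1 rose, and 19 of 20 had a fold change below 0 (median -0.13). Erbb4, the neuregulin receptor through which these cells receive excitatory synapses, ranged from 93.8 to 105 CPM in WT (median 100.4) and from 70.2 to 91.1 CPM in HOM (median 85). Every HOM library lay below every WT library (-0.28, SE 0.04, adjusted p = 0.000388). Pvalb, the calcium-binding protein parvalbumin, ranged from 61.2 to 80.2 CPM in WT (median 70.8) and from 47.5 to 69.6 CPM in HOM (median 59.5), with 7 HOM libraries below the lowest WT library (-0.28, SE 0.07, adjusted p = 0.0146). Kcns3, a modifier of potassium channels in these cells, fell by 0.24, Btbd11 by 0.19, and Akr1c18, a steroid dehydrogenase, by 0.54. Rbp4, the retinol-binding protein, rose by 0.20 in 10 of 27 settings. Without WT 6 and HOM 3, 4 of the 5 were called again, Pvalb not among them, and 3 with the marker scores.

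Somatostatin interneurons, which inhibit dendrites, had 2 of 16 markers higher and none lower (median 0.03). Sst, the peptide that names them, ranged from 132 to 160 CPM in WT (median 148) and from 164 to 219 CPM in HOM (median 176), without overlap (0.28, SE 0.05, adjusted p = 0.00129). Npy, a peptide that part of these cells release, ranged from 60.9 to 82.4 CPM in WT and from 65.5 to 92 CPM in HOM, and rose by 0.20. Both were called again without WT 6 and HOM 3 and with the marker scores. No marker among 20 of interneurons of caudal origin passed the threshold. Among excitatory neurons, 1 of 20 upper-layer markers rose, the adhesion gene Mdga1 (0.56, called in 13 of 27 settings), and 1 of 25 deep-layer markers fell, Parm1 (-0.22). A difference between interneuron classes was not tested.

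**Figure D3:**
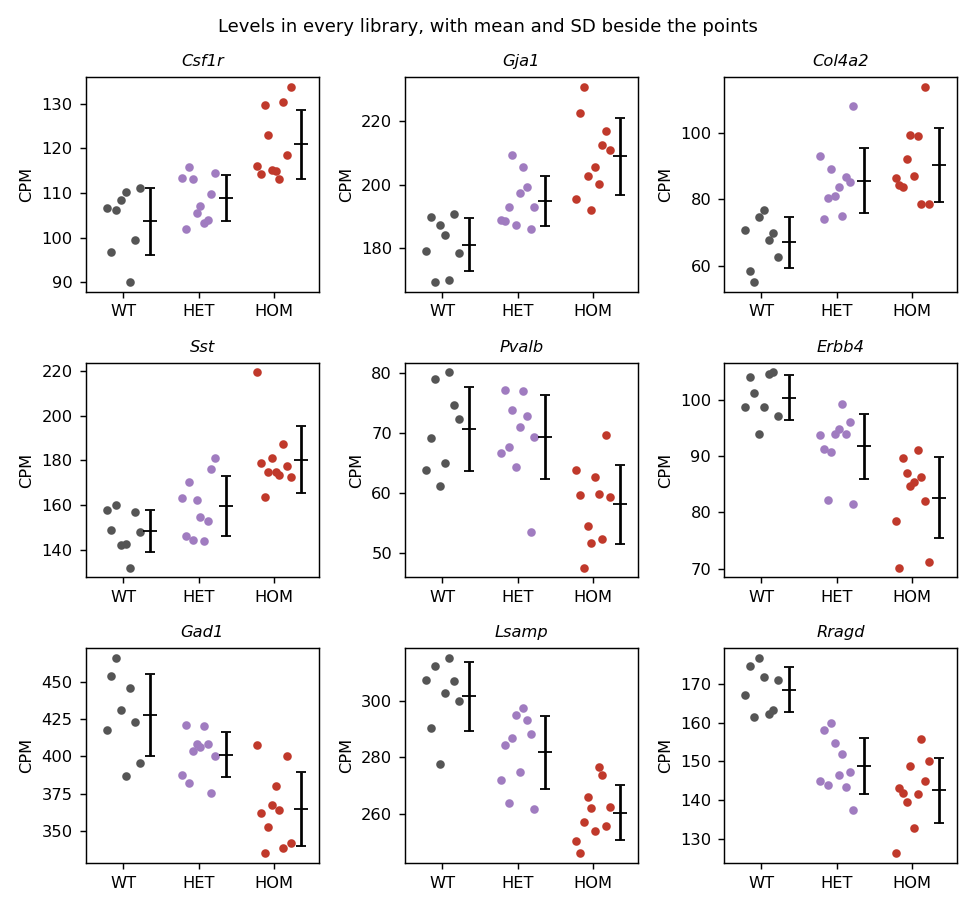
CPM in every library of WT (8), HET (10) and HOM (10) for 9 genes, with the mean and SD beside each group; axes do not start at 0. For Csf1r, Gja1, Col4a2, Sst, Erbb4, Lsamp and Rragd no HOM library overlaps a WT library, while Pvalb and Gad1 overlap in part.

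Most genes of excitatory receptors and the release machinery moved little. Of 28 genes of AMPA, NMDA and kainate receptors and their partners 4 rose (14.3%, against 3.9% of all genes) and none fell. Of the 28, 25 had an interval within 1.2-fold. Grin2c ranged from 53.8 to 69.9 CPM in WT (median 57.5) and from 65.2 to 76.4 CPM in HOM (median 68.5), a log2 fold change of 0.27 (SE 0.04, adjusted p = 0.000714). Shisa6, which keeps AMPA receptors at the synapse, rose by 0.42. Without WT 1, 2, 3 or 6 or HOM 1 or 9, 2 of the 28 were higher, and 2 and 1 of the 4 were called again in the added fits. Of 46 genes of synaptic vesicles and release 1 rose, the active zone scaffold Bsn (0.10), 1 fell, Napb (-0.10), and 41 had an interval within 1.2-fold. Of 31 scaffolds of the postsynaptic density 29 did, with Cyfip1 higher (0.08) and its paralog Cyfip2 lower (-0.11). Both encode a subunit of the complex that starts actin branching, and their difference was not tested. The 30 immediate early genes, which follow recent activity, had none called, a median of -0.18 and 3 intervals within 1.2-fold, so that changes larger than that remained possible for most of them. Of 22 clock genes none was called.

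Adhesion molecules that neurons use at synapses and along axons fell in 12 of 67 cases and rose in 2 (median -0.04). Lsamp, the limbic system-associated membrane protein, ranged from 278 to 315 CPM in WT (median 305) and from 246 to 276 CPM in HOM (median 260), without overlap (-0.21, SE 0.03, adjusted p = 6.45e-05). The presynaptic organiser Nrxn3 fell by 0.12, the postsynaptic Lrfn5 by 0.21, and Cntn1, a contactin of axons and nodes, by 0.12. Of 35 protocadherins, 5 fell and none rose (median -0.08), with Pcdhb5 (-0.26), Pcdh9 (-0.17) and Pcdh11x (-0.22) leading. Without WT 6, 7 of the 67 adhesion genes were lower. Of the protocadherins, 3 were lower without WT 1, 2, 6 or 7 or HOM 3, and in the added fits 6 and 4 of the 12 adhesion genes and 2 and 2 of the 5 protocadherins were called again. Axon guidance genes went both ways, with 4 of 64 higher (6.25%) and 3 lower (4.69%), against 3.9% and 3.71% of all genes. Ntng2 (0.45), a membrane netrin, and Plxnb2 (0.16), a semaphorin receptor, were among the 4. The lower count was 0 without WT 1, 2, 6 or 7 or HOM 2 and 1 without WT 5 or HOM 4, 8 or 10, and the higher count 2 without WT 1, 2, 6 or 8 or HOM 2. In each added fit 2 higher genes and no lower gene were called again.

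Of 41 voltage-gated potassium channel genes 4 fell and none rose: Kcns3, Kcnh7 (-0.18), an ERG-type channel whose groups did not overlap, Kcnab1 (-0.24), a beta subunit, and Dpp10 (-0.16), a partner of A-type channels (3 and 2 again in the added fits). Among all 80 Kcn genes 4 (5%) were lower, against 3.71% of all genes. Of 36 sodium and calcium channel genes 2 fell, Fgf12 (-0.19), an intracellular factor that shifts sodium channel inactivation, and the calcium channel subunit Cacnb4 (-0.13). This count was 1 without WT 2, 6, 7 or 8 or HOM 2, 5 or 10 and in each added fit, and 4 without WT 5 or HOM 9. Fgf12 ranged from 170 to 193 CPM in WT and from 150 to 171 CPM in HOM, with 9 HOM libraries below the lowest WT library. Nrg3, a ligand of Erbb4, ranged from 38.9 to 47.8 CPM in WT (median 42.8) and from 31.4 to 39.8 CPM in HOM (median 35.1), and fell by 0.26 (SE 0.04, adjusted p = 0.000623). Receptors for monoamines, acetylcholine and peptides had 2 of 54 lower, Chrna4 (-0.15) and Npy1r (-0.18), and none higher. Ppp3ca (-0.13) and Ppp3r1 (-0.16), which encode a catalytic and a regulatory subunit of the calcineurin phosphatase, were among the most abundant called lower genes. Ppp3r1 ranged from 947 to 1035 CPM in WT and from 794 to 959 CPM in HOM, with 9 HOM libraries below the lowest WT library. The imprinted long noncoding RNA Meg3 had the highest level of any called gene, 6805 ± 678 CPM in WT (n = 8) and 6068 ± 458 CPM in HOM (n = 10), and fell by 0.17 in 13 of 27 settings. These 3 were named after their values were seen.

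**Figure D4:**
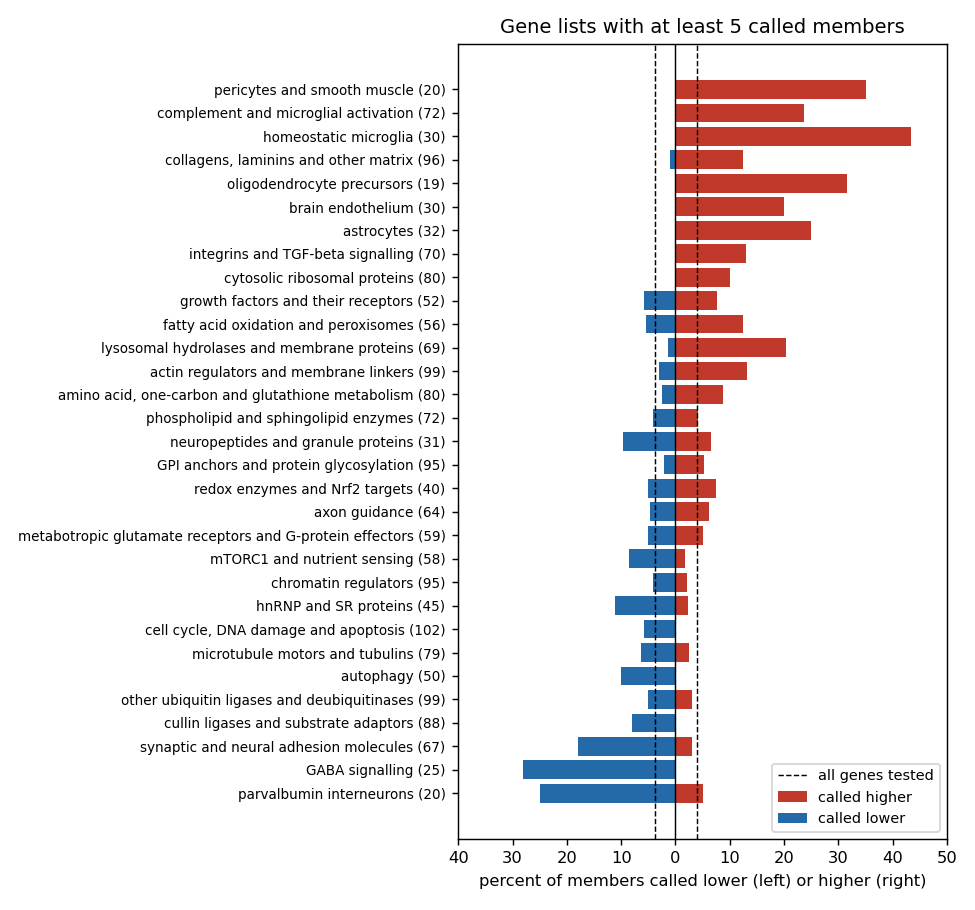
Percent of tested members called lower (blue, left) or higher (red, right) in HOM for the 31 gene lists with at least 5 called members, ordered by median log2 fold change, with tested members in brackets. Dashed lines mark all genes tested (3.71% lower and 3.9% higher); 43.3% of microglia markers were higher and 28% of GABA genes lower.

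Machinery that works beside TDP-43 in RNA processing changed mostly by small amounts. The lower share was 11.1% of hnRNP and SR protein genes and 10% of splicing regulators, against 3.71% of all genes. It was 5.17% for spliceosome genes, 5.56% for nuclear pore and transport genes and 3.64% for polyadenylation and decay. Of 45 hnRNP and SR protein genes 5 fell, and all 45 had an interval within 1.2-fold. Hnrnpk (-0.09), Ptbp2 (-0.12), Hnrnph2 (-0.09) and Hnrnpr (-0.13) were among the 5, and the only gene called higher was Tardbp. Without WT 6, 1 of the 45 was lower, 2 without HOM 2, and 3 without WT 2, 3, 7 or 8 or HOM 9 or 10, and 2 and 1 of the 5 were called again in the added fits. Of 58 spliceosome genes 3 fell, none rose and all 58 had an interval within 1.2-fold (3 and 2 again in the added fits). Zrsr2, which recognises the 3' splice site of minor introns, ranged from 50.8 to 53.2 CPM in WT (median 51.8) and from 45.1 to 48.2 CPM in HOM (median 46.5), without overlap (-0.15, SE 0.02, adjusted p = 5.62e-05). Snrpb2, a protein of the U2 particle, fell by 0.13. Of 30 splicing regulators of neurons and other tissues Rbfox1 (-0.13), Elavl2 (-0.16) and Celf4 (-0.11) fell, none of which was called in either added fit. Xrn1, the exonuclease that degrades decapped messages, ranged from 18.6 to 22.8 CPM in WT and from 14.2 to 19 CPM in HOM, and fell by 0.24 (SE 0.05, adjusted p = 0.00491). It was 1 of 2 lower genes among 55 of polyadenylation and decay (1 and 0 again in the added fits). Nuclear pore and transport genes had 3 of 54 lower, with 0 lower without WT 2, 1 without WT 6, 5 without HOM 3 and none called again in the added fits. Splicing itself cannot be read from counts per gene.

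Ribosomal protein genes rose in 8 of 80 cases and fell in none, with a median of 0.06 and 71 of 80 above 0. Rpl31 ranged from 183 to 207 CPM in WT and from 190 to 259 CPM in HOM, and rose by 0.18. Rpl41 ranged from 88.4 to 155 CPM in WT and from 97.7 to 218 CPM in HOM (0.61, called in 24 of 27 settings). Many of these genes have near-identical pseudogenes, so reads may be split between copies. The count depended on the libraries and was 2 without WT 6, 3 without WT 2, 4 without WT 3, WT 8 or HOM 10, 5 without WT 4, WT 5 or HOM 2, and 16 without HOM 7, with 2 and 1 of the 8 called again in the added fits. Translation factors had 1 of 55 lower and tRNA synthetases 1 of 22.

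Among genes of protein degradation by ubiquitin, Spop, the substrate adaptor of a cullin 3 ligase, ranged from 194 to 208 CPM in WT (median 202) and from 164 to 179 CPM in HOM (median 173), and 4933439F18Rik (Gid4), the substrate receptor of the CTLH ligase, from 77.3 to 83.7 CPM (median 78.5) and from 55.4 to 61.8 CPM (median 59.4). Neither gene's groups overlapped. Both were among the strongest changes of the comparison and serve as reference points here. Armc8, another subunit of the CTLH ligase, fell by 0.10 (24 of 27 settings). Of 88 cullin ligase genes 7 fell and none rose, among them Cul1 (-0.09) and Skp1a (-0.10), 2 core parts of the SCF ligase, and 82 had an interval within 1.2-fold. Without WT 1, 2 or 6, 4 of the 88 were lower, and 4 and 2 of the 7 were called again in the added fits. Of 99 other ligases and deubiquitinases 5 fell (5.05%) and 3 rose (3.03%), near the 3.71% and 3.9% of all genes. Wwp2, a HECT ligase, ranged from 36.8 to 40.2 CPM in WT and from 31.4 to 37.1 CPM in HOM, with 9 HOM libraries below the lowest WT library (-0.17, SE 0.03). Usp14, the deubiquitinase of the proteasome, fell by 0.14. The higher count was 0 without WT 2, 3, 6 or 8 or HOM 1 or 7 and 1 without HOM 2, 3, 4 or 5. The lower count was 3 without WT 3 or 7, 8 without HOM 9 and 9 without HOM 7. In each added fit 3 of the lower genes and no higher gene were called again. The proteasome itself had no called gene among 48, with 47 intervals within 1.2-fold, and 59 F-box genes had none called. Of 70 chaperones and genes of the unfolded protein response 2 fell, Dnajb6 (-0.11) and Dnajb14 (-0.09), neither of them in the added fits.

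Of 58 genes of nutrient sensing and mTORC1, 5 fell and 1 rose (median -0.01). The 4 Rag GTPases, members of this list, hold the growth kinase complex mTORC1 on the lysosome when amino acids are present, and all 4 fell: Rragd (-0.24), Rraga (-0.14), Rragb (-0.14) and Rragc (-0.09). Rragd ranged from 161 to 177 CPM in WT (median 169) and from 126 to 156 CPM in HOM (median 142), without overlap. Rraga ranged from 76.5 to 84.4 CPM in WT (median 81.1) and from 67.7 to 84.6 CPM in HOM (median 73.1), with 9 HOM libraries below the lowest WT library. Rragb and Rragc were called in 18 and 12 of 27 settings. Tsc1, which holds mTORC1 back, also fell (-0.09), and Wdr24, a part of the GATOR2 complex upstream of the Rag GTPases, rose by 0.15 in 13 of 27 settings. Without WT 6, 2 of the 58 were lower, and 3 without WT 2, HOM 1, HOM 6 or HOM 10, and 3 of the 5 were called again in each added fit.

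Lysosomal hydrolases and membrane proteins went the other way, with 14 of 69 higher and 1 lower, and 61 intervals within 1.2-fold. Gm2a, the activator that presents ganglioside GM2 for degradation, ranged from 48.4 to 54.4 CPM in WT (median 50) and from 53 to 61 CPM in HOM (median 55.9), and rose by 0.16. Ctsh, a cathepsin, rose by 0.29, and Laptm5, a lysosomal protein of microglia that is in that list too, by 0.20. Atp13a2, a polyamine exporter of the lysosome, ranged from 117 to 139 CPM in WT and from 137 to 167 CPM in HOM (0.21, SE 0.04, adjusted p = 0.00121), and Slc11a1, a metal transporter of phagocyte lysosomes, rose by 0.37 without overlap. Without WT 6, 5 of the 69 were higher, 7 without WT 2 or WT 7, 8 without HOM 10 and 9 without WT 4 or HOM 6, and 4 and 2 of the 14 were called again in the added fits. The microglia markers moved with these genes, and their part in the result was not tested. Autophagy genes had 5 of 50 lower and none higher, all 50 with an interval within 1.2-fold. Pik3c3 (-0.10), the lipid kinase that starts autophagosomes, and Tbk1 (-0.09), a kinase of autophagy receptors, were 2 of them. The count was 0 without WT 6, 1 without WT 1 or 2, 2 without WT 7 or HOM 9 or 10, and 3 without WT 3 or 5 or HOM 1, 2 or 6, and 1 was called again in each added fit. Of 18 V-ATPase genes 1 rose, Atp6v0b (0.12).

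In the metabolism lists most genes were not called. D2hgdh, which oxidises the metabolite D-2-hydroxyglutarate in mitochondria, ranged from 7.09 to 8.69 CPM in WT (median 7.47) and from 9.73 to 11.4 CPM in HOM (median 10.7), and is the reference point of the higher side (0.47). Glud1, which feeds glutamate into the citric acid cycle, ranged from 225 to 245 CPM in WT (median 238) and from 247 to 267 CPM in HOM (median 255), and rose by 0.11 without overlap. In the cycle itself Sucla2, a subunit of the succinyl-CoA ligase, fell by 0.11, and Idh3a, a subunit of the isocitrate dehydrogenase, by 0.10. The other 26 of 30 genes of this list were not called, and 29 intervals lay within 1.2-fold. The respiratory chain and ATP synthase had 3 of 74 lower, 72 intervals within 1.2-fold, with 0 lower without WT 2, 6, 7 or 8, 1 without WT 3 or HOM 6, and 5 without WT 5 or HOM 2, and none called again in the added fits. Fatty acid oxidation and peroxisomes had 7 of 56 higher and 3 lower. Of the 56, 41 had a fold change above 0 (median 0.05). In all 10 HOM libraries the mean log2 level of this list lay above the WT mean. The higher genes included Ech1 (0.13) and Acadvl (0.09), 0 and 1 of the 7 were called again in the added fits, and the higher count was 0 without WT 6, 1 without WT 2, 2 without WT 3, 5 or 7 or HOM 4 or 10, 3 without HOM 1 or 5, and 4 without WT 4 or HOM 2 or 3. Phyh, the peroxisomal enzyme for phytanic acid, fell by 0.14. Amino acid metabolism had 7 of 80 higher, among them Cbs, Glud1 and the serine synthesis enzyme Phgdh (0.19), and 2 lower. The higher count was 2 without WT 6, 3 without WT 2, and 4 without WT 3 or HOM 2, 9 or 10, and 2 of the 7 were called again in each added fit. Gstm7, a glutathione transferase, was 1 of the 2 lower genes (-0.32). Of 40 redox enzymes and Nrf2 targets 3 rose (7.5%) and 2 fell (5%), with a median of 0.01. Blvrb, a biliverdin reductase (0.27), was among the higher ones, and Sod2 (-0.17) and Msra (-0.19) were the lower ones. The higher count was 1 without WT 2, 3, 5, 6 or 8 or HOM 10, and 1 higher and 2 lower genes were called again in each added fit. Of 72 phospholipid and sphingolipid enzymes 3 rose and 3 fell (4.17% each), and of 58 of fatty acid and cholesterol synthesis 2 rose and 2 fell (3.45% each), near the shares of all genes. Among them Agpat2 (0.56), Degs2 (0.40) and Elovl2 (0.23) rose and Asah2, a neutral ceramidase, fell (-0.26). Mttp, a lipid transfer protein of lipoprotein assembly, ranged from 11.9 to 14.5 CPM in WT and from 8.29 to 13.1 CPM in HOM, and fell by 0.38.

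Among name families, solute carriers had 12 of 273 higher (4.4%) and 5 lower (1.83%), against 3.9% and 3.71% of all genes. These counts were 7 and 3 without WT 6, with 3 lower without WT 1 or HOM 6. In the added fits 8 and 4 of the higher and 3 and 2 of the lower genes were called again. The 2 thiamine transporters went apart. Slc19a3 ranged from 3.2 to 4.53 CPM in WT and from 4.16 to 5.66 CPM in HOM and rose by 0.35, with 9 HOM libraries above the highest WT library. Slc19a2 ranged from 20.2 to 23.8 CPM in WT and from 17.2 to 20.6 CPM in HOM and fell by 0.18, with 9 HOM libraries below the lowest. Slc38a5, a glutamine transporter of vessels, ranged from 0.579 to 1.63 CPM in WT and from 1.68 to 2.38 CPM in HOM, and rose by 0.71 without overlap. Zinc finger genes (Zfp and Zscan) had 17 of 356 lower (4.78%, near the 3.71% of all genes) and 2 higher (0.562%), with Zfp60 (-0.18), Zfp597 (-0.13) and Zfp788 (-0.14) first. Without WT 6, 4 were lower, 7 without WT 2, 8 without HOM 2, 10 without WT 7, WT 8 or HOM 3, and 11 without WT 5, and 4 and 3 of the 17 were called again in the added fits. Of 62 Rab genes, which steer vesicle traffic, 5 fell (8.06%) and 1 rose (1.61%), with Rab6a (-0.12) and Rab5a (-0.13) stable. The lower count was 2 without HOM 2 and 3 without WT 1, 3, 6 or 7, and 2 and 3 of the 5 were called again in the added fits. Among motors and tubulins, Kifap3, an adaptor of kinesin 2, fell by 0.12 without overlap. Chromatin regulators had 2 of 95 higher (2.11%) and 4 lower (4.21%), with all 95 intervals within 1.2-fold, and the deacetylase Sirt1 fell by 0.17. In the added fits 1 and 0 of the 4 lower genes and no higher gene were called again. Genes of cell cycle, DNA damage and apoptosis had 6 of 102 lower (5.88%) and none higher, with 3 and 0 called again in the added fits.

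The largest changes were in genes at low levels. Among called genes of at least 1 CPM, Prg4, a lubricating glycoprotein, had the largest fold change on the higher side (log2 1.33, SE 0.37), from 1.51 to 6.3 CPM in WT to 3.51 to 26.2 CPM in HOM. It passed in 18 of 27 settings and not in the fits without WT 6 and HOM 3 or with the marker scores. Lbp (1.07), Pkp1 (1.03), Itgbl1 (0.81) and Col1a1 were among the 6 largest as well, and none of these 4 was called in either of those 2 fits. Col1a1 entered the meningeal marker score, so the fit with marker scores does not test it. On the lower side Olfr316, an olfactory receptor gene, ranged from 1.8 to 2.64 CPM in WT and from 0.862 to 1.77 CPM in HOM, without overlap (-0.96, SE 0.12). Scn10a, a sodium channel of sensory neurons, ranged from 1.05 to 1.52 CPM in WT and from 0.379 to 1.11 CPM in HOM (-0.71, SE 0.14), and Rec8, a meiotic cohesin, had -0.60. All 3 were stable and were called again in both fits.

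Call shares differed with the level and the length of genes. The lower share went from 0.914% of 2187 genes under 1 CPM through 1.88% at 3 to 10 CPM to 8.86% of 508 genes over 300 CPM. The higher share was 2.19% under 1 CPM, was largest at 3 to 10 CPM (5.81% of 2289 genes), and was 1.77% over 300 CPM. Among protein-coding genes under 5 kb, 4.63% of 1599 were higher and 1.88% lower. Among the 213 genes over 500 kb, 5 (2.35%) were higher and 38 (17.8%) lower, and 157 had a fold change below 0 (median -0.06). Lengths are those of GENCODE vM21. By the authors' deposited positions, the number over 500 kb was 189, and 35 of them (18.5%) were lower. The share also held within a range of levels: between 10 and 100 CPM, 18.6% of 113 genes over 500 kb were lower against 3.24% of 3181 genes under 20 kb, and over 100 CPM, 27.3% of 55 were against 3.72% of 698. In 8 of 10 HOM libraries the mean log2 CPM of the 213 genes lay below the lowest WT library (5.00 to 5.10 in HOM, 5.07 to 5.13 in WT).

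**Figure D5:**
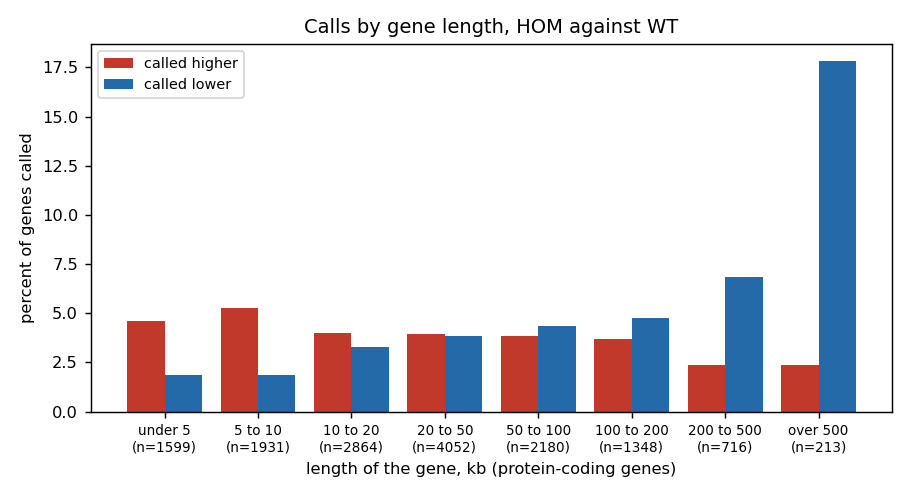
Percent of protein-coding genes called higher (red) and lower (blue) in HOM by length of the gene in kb, with the number of genes in each bin. The lower share is 1.88% under 5 kb and 17.8% over 500 kb, and the higher share 4.63% and 2.35%.

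The long genes that fell included members of several lists above. Besides Lsamp (2197 kb), Erbb4 (1076 kb), Nrg3 (1104 kb), Nrxn3 (1612 kb) and Fgf12 (593 kb) they included Cntnap2 (2245 kb, -0.14), a neurexin-like axonal protein, Rbfox1 (1526 kb), Wwox (913 kb, -0.24), an oxidoreductase tied to brain development, and Arhgap15 (647 kb, -0.34), a GTPase-activating protein for Rac. Dmd (2257 kb, -0.15), the dystrophin gene, was named after its value was seen. Arhgap15 ranged from 20.2 to 24.7 CPM in WT (median 21.7) and from 15.8 to 20.7 CPM in HOM (median 17.3), with 9 HOM libraries below the lowest WT library. The number of lower genes over 500 kb was 24 (11.3%) without WT 6, 21 (9.9%) without WT 6 and HOM 3, and 16 (7.5%) with the marker scores, while the median stayed at -0.06, -0.07 and -0.06. Genes of the X chromosome had 42 of 559 lower (7.51%) and 17 higher (3.04%), Zrsr2, Rragb and Pir (-0.38), an iron-binding nuclear protein, among the lower ones.

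A last set of called genes with a rank just below the strongest belonged to none of the groups above. On the higher side these were Athl1 (Pgghg, 0.30), a glucosidase of collagen sugars, and Rnase4 (0.37), a secreted ribonuclease. On the lower side they were Ccdc148 (-0.30), Dus2l (Dus2, -0.25), a dihydrouridine synthase of tRNA, Pkib (-0.32), an inhibitor of protein kinase A, Cryzl1 (-0.11) and Tbpl1 (-0.14), a relative of the TATA-binding protein. Each was called in 27 of 27 settings, and for Cryzl1 and Tbpl1 the groups did not overlap.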

How the data were processed

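Per the labels' protocols, polyA RNA libraries of mouse frontal cortex were sequenced. Per the submitters' processing notes, reads were handled with Trim Galore 0.4.3 and HISAT2 2.0.5 on GRCm38. How reads were assigned to genes (tool, strand, annotation) is not given in the sources used here. Whole-number read counts per gene were deposited for 28 libraries, in 25965 rows with 25900 identifiers. Rows that share an identifier (57 identifiers in 122 rows) were summed. No 2 of the WT and HOM libraries agreed within sampling noise.

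Counts of all 28 libraries were fitted in 1 model with edgeR 4.0.16 in R 4.3.3 (filterByExpr, TMM scaling, robust quasi-likelihood F test), and the contrast of HOM against WT was adjusted by Benjamini-Hochberg over 16110 genes, with a threshold of 0.05. CPM use TMM-scaled library sizes, the SE is the fold change divided by the square root of F, and intervals are 95%. The fitting code was tested on simulated data. Alternatives were DESeq2 1.42.0, its size factors in edgeR, no count filter, at least 1 CPM in 8 libraries, limma 3.58.1 voom with quality weights, only WT and HOM libraries, a block on the replicate number, 2 surrogate variables (sva 3.50.0), and leaving out each of 18 libraries. The fits without WT 6 and HOM 3 and with marker scores were chosen after seeing the data. Gene lengths come from GENCODE vM21 and promoter windows from RefSeq.

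The comparison, the 68 gene lists and the 20 name families were chosen with earlier results of these data known. The rule for named genes took Tardbp, D2hgdh, Gid4 and Spop, called genes of at least 1 CPM ranked 13 to 27 by p in each direction, the 6 largest folds in each direction, up to 4 called members of a list and up to 3 of a family in each direction, and the 2 most abundant members of a list without calls. Part of these are printed, and some genes are not reported here. Outside the rule, and named after their values were seen, are C1qb, Cntnap2, Dmd, Fhod1, Gabra4, Gabrg3, Lamc3, Lats1, Meg3, Pcmt1, Ppp3ca, Ppp3r1, Pvalb, Rragc, Scrg1, Slc19a3, Slc38a5, Slc9a5 and Tmem176a. Because strand use is not known, reads of genes whose exons overlap a coding gene on the opposite strand cannot be assigned to 1 of them. Of the genes named, these are Acadvl, Agpat2, Arhgdib, Col4a1, Col4a2, Cp, Csf1r, Cyfip1, Degs2, Dnajb6, Dus2l, Eng, Fhod1, Gabra4, Glul, Gpr17, Hnrnpk, Irf3, Kcnh7, Mttp, Prg4, Rab5a, Rab6a, Rpl31, Rragc, Stab1, Tardbp, Tbpl1, Tln1, Tmem176a, Tmem176b, Usp14 and Zfp597. The same holds for 187 of the 1226 called genes.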

Additional observations from a re-analysis of the deposited data

Results flagged for a closer look

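In 32 of 346 sets of values (total counts, and CPM of each named gene, in WT or in HOM), 1 library stood apart from the others of its genotype by a gap larger than Dixon's 95% critical value. Chance flags about 1 in 20 such sets. HOM 3, the library at one end of the first principal component, was the highest in 7 of them: Aqp4 (176.6 CPM), Itgbl1 (5.126 CPM), Lamb2 (39.17 CPM), Lbp (4.703 CPM), Prg4 (26.2 CPM), Stab1 (29.23 CPM) and Vim (64.91 CPM). HOM 10 was the highest for Bmp1 (90.7 CPM), Mttp (13.08 CPM) and Olfml3 (23.51 CPM) and the lowest for Parm1 (46.45 CPM), Sod2 (98.62 CPM) and Sucla2 (121.3 CPM). HOM 1 was the highest for Atp6v0b (191.6 CPM), Pcmt1 (172.1 CPM) and Sst (219.3 CPM) and the lowest for Cul1 (110.4 CPM) and Hnrnpr (57.82 CPM). HOM 9 was the highest for Cbs (47.49 CPM), Glul (2515 CPM) and Mdga1 (31.67 CPM). HOM 2 was the lowest for Dnajb14 (107.5 CPM) and the highest for Rraga (84.61 CPM).

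Among WT libraries, WT 8 was the highest for Lbp (1.412 CPM) and Olfml3 (18.21 CPM) and the lowest for Lamc3 (2.919 CPM) and Tsc1 (114.4 CPM). WT 3 was the highest for Arhgdib (8.042 CPM) and Kcnab1 (111.3 CPM), WT 4 for Grin2c (69.86 CPM) and Rlbp1 (24.44 CPM), and WT 2 for Npy (82.43 CPM).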

How the results depend on the processing

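Of 1226 calls (629 higher, 597 lower), leaving out 1 library gave 595 to 1345, with 297 to 649 higher and 298 to 696 lower. The fit of WT and HOM libraries alone, without the HET libraries, gave 832 calls (410 higher, 422 lower). Without WT 6 and HOM 3 there were 509 calls (247 higher, 262 lower), and with marker scores 447 (245 higher, 202 lower). With both of these fits added, 245 genes passed in every setting, against 437 without them. The cause of these shifts was not tested.

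A block on the replicate number gave 737 calls (371 higher, 366 lower). Same-numbered WT and HOM libraries correlated at -0.158 to 0.126, and no WT library correlated best with its own number. The labels do not say what the number stands for. These correlations cannot tell whether same-numbered libraries shared a litter or day of preparation.

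Of 172 called genes named, 121 were called in the same direction in every planned setting, 127 without WT 6 and HOM 3, and 100 with marker scores. Over all 1226 calls these numbers were 437, 489 and 347. None of the 172 changed sign in any setting run. Since they were named as called genes of the main fit and the settings share most libraries, this does not test their direction. Depth does not give splicing or the mutant transcript's share.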
